A study of Homo sapiens with 3 samples.

Results

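The comparison described here sets 1 library of HNRNPU knockdown cells against 1 library of control cells of the human hepatocellular carcinoma line PLC. PLC cells of every group were grown in DMEM with serum, infected with viruses that carry short hairpin RNAs and harvested 48 hours later. The control received a non-targeting hairpin (NTC in the labels), and the library labelled shhnRNP U received hairpins against HNRNPU, which is called the knockdown below. A library of DIS3L2 knockdown cells (shDIS3L2), infected and harvested in the same way, completes the 3 libraries, and its values are given beside the others as a description only. It is compared with the same control, so the differences of both knockdowns from control are not independent of each other. All genes were considered: a gene entered when both libraries listed the same name at overlapping positions, both were above 0 FPKM with a valid status, and the mean was at least 1 FPKM. This left 10673 genes of 52077 matched entries (57072 entries in control and 56769 in the knockdown). FPKM is a level corrected for transcript length and for how many fragments of a library mapped. Each group is 1 library of 1 cell line, so no difference has a replicate check, and the number of hairpins and of cultures behind a library is not known here.

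HNRNPU encodes hnRNP U, also known as scaffold attachment factor A, an abundant nuclear protein that binds both RNA and chromatin. It holds nuclear RNAs on chromatin, helps keep active chromatin open, and takes part in the choice of splice sites by way of the small nuclear ribonucleoproteins of the spliceosome. The gene-level values used here sum the transcripts of a gene, so they show how much RNA a gene left in the cell and not which exons it held. Below, higher means a log2 ratio of FPKM + 1 of 1 or more with confidence bounds, as deposited, that lay apart in control and knockdown, and lower means a ratio of -1 or less on the same terms. The bounds stand in parentheses behind an FPKM, and they do not include differences between cultures. Bounds that lay apart were common, being found in 57.25% of the genes tested. Only 85 genes with a ratio past 1 or -1 failed on their bounds, so a call rests mainly on the size of the ratio.

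Depth, estimated from the bounds of 66, 77 and 72 genes, had a median of 22.98 M fragments in control, 20.05 M in the knockdown and 18.35 M in shDIS3L2. The bounds reached a median of 10.7% of the FPKM to either side in control and 11.4% in the knockdown. The start and end of a locus could differ between the libraries, and 8020 of the 10673 genes had the same ones in both. Among them, 4736 also carried a single name and overlapped no other expressed locus. Genes outside that set are less certain and carry a † where a paragraph first gives their values. Of the liver cell markers, ALB and AFP stood at 11.8 and 19 FPKM in control and SERPINA1 at 11439 FPKM, while all 6 markers of fibroblasts and stellate cells were below a mean of 1 FPKM, as were 3 of the 4 endothelial markers (the other had no matched entry).

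The targeted gene was looked at first. HNRNPU† had a control level of 178 FPKM (172 to 184), against 33.5 (31.8 to 35.2) in the knockdown and 232 (224 to 241) in shDIS3L2. The knockdown was thus the lowest of the 3 libraries, with a log2 ratio of -2.38 against control. The locus on chromosome 1 (245003940 to 245027858, hg19) carries the antisense gene HNRNPU-AS1 under the same entry, so the value covers the pair. The handling of strand is not known here, and the locus had other bounds in control and knockdown. DIS3L2†, an exonuclease of uridylated RNAs and the target in the other knockdown, had 7.61, 11.2 and 3.23 FPKM in control, knockdown and shDIS3L2, a log2 ratio of 0.50 that did not pass.

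Across the transcriptome, 684 genes were higher in the knockdown (6.41% of those tested) and 545 were lower (5.11%), while 9444 passed neither way. Those past the rule made up 11.5% of all genes, and the counts of each gene list below stand beside these shares. By the same rule shDIS3L2 had 774 higher (7.24%) and 541 lower (5.06%) of 10687 genes against the same control. Most differences were of moderate size: the median fold among higher genes was 2.84, and 51 higher and 63 lower genes reached a log2 ratio of 2 or -2. The middle of all genes lay slightly above 0, at a median log2 ratio of 0.13. When the knockdown was rescaled so that this median became 0, 462 genes were higher and 706 lower, so the larger number of higher genes rests on how the libraries are scaled. With a pseudocount of 5 in place of 1, which shrinks the ratios of low genes further, 238 were higher and 292 lower. The count with it is given for some lists below. Lists without it can also have moved, as Mediator did, from 2 lower genes to 0. After rescaling, 462 of the 684 higher genes and 545 of the 545 lower genes were still called. With a pseudocount of 5, 238 and 292 of them were, and 0 changed sign under either setting.

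**Figure D1:**
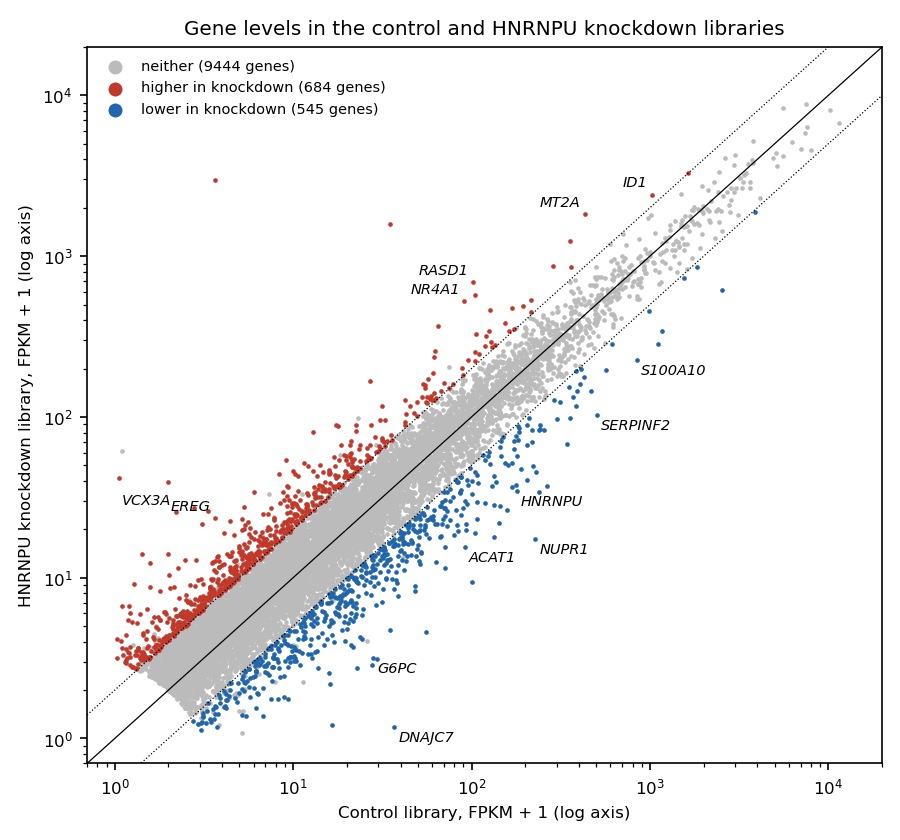
Each point is 1 of the 10673 genes tested, with FPKM + 1 in control on the horizontal and in the HNRNPU knockdown on the vertical log axis. The solid line marks equal values and the dotted lines a 2-fold difference of FPKM + 1, and red and blue points are the 684 higher and 545 lower genes; 1 gene above 20000 FPKM lies outside the frame.

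The 15 genes with the highest ratios included 5 cancer-testis genes, described with their list, and 6 less certain ones. The largest ratio, 9.67, was that of the pseudogene C1DP1†, with 2.64 FPKM (0 to 30.5) in control, 2963 (1076 to 4849) in the knockdown and 256 in shDIS3L2. It rests on few fragments: the width of its bounds corresponds to 9.86 in the knockdown and 0.0361 in control. C1orf64† had 0.978, 38.3 and 0.980 FPKM, and the noncoding RNAs LINC00623†, RP11-47P18.2† and PARD3-AS1† had 40.9, 13.1 and 11.4 FPKM in the knockdown and under 1 FPKM in control. ALG14†, which helps add the second sugar of the N-glycan precursor, had 2.35, 24.96 and 2.14 FPKM. C1orf64, ALG14 and these noncoding RNAs had other locus bounds in control and knockdown, and how far that made their ratios was not tested. RASD1, a small GTPase of the Ras family that glucocorticoids induce, had 100.4 FPKM (95.1 to 106) in control, 692 (662 to 722) in the knockdown and 374 in shDIS3L2, a log2 ratio of 2.77. WTIP, a LIM domain protein of cell junctions, had 11.9 FPKM (10.9 to 13), 79.3 (75.3 to 83.3) and 12.9, a log2 ratio of 2.63. The level of WTIP in shDIS3L2 was thus near that of control, while RASD1 was above control in both knockdowns. PI4K2B, a kinase of phosphatidylinositol, had 4.29 FPKM in control, 26.6 in the knockdown and 4.55 in shDIS3L2. SNRPF, the F protein of the Sm ring on which spliceosomal small nuclear RNAs are assembled, had 61.4 FPKM (57.5 to 65.3), 256 (236 to 276) and 74.8, a log2 ratio of 2.04. PI4K2B was chosen after its values were seen, as were NOL7†, a nucleolar protein gene (63.9 to 366 FPKM, with 86.5 in shDIS3L2), RBM18† (5.05 to 33.2 FPKM, with 8.01) and SYAP1† (16.8 to 86.2 FPKM, with 22.3). NOL7 overlaps another expressed locus, and RBM18 and SYAP1 had other locus bounds in control and knockdown.

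Among the most abundant higher genes were ID1, an inhibitor of basic helix-loop-helix factors, and ODC1, the first enzyme of polyamine synthesis. ID1 had 1024 FPKM (980 to 1069) in control, 2414 (2311 to 2516) in the knockdown and 1468 in shDIS3L2. ODC1 had 285 FPKM (275 to 294), 863 (832 to 893) and 576. In both genes the control was the lowest of the 3 libraries and the HNRNPU knockdown the highest. ACTG1†, cytoplasmic gamma-actin, had 1631 FPKM (1563 to 1699) in control and 3297 (3188 to 3407) in the knockdown, but 705 in shDIS3L2, and it shares its entry with an overlapping name.

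The 15 lowest ratios belonged to genes of varied function. DNAJC7†, a J-domain partner of heat shock proteins, had 35.9 FPKM (33.4 to 38.5) in control, 0.180 (0.0330 to 0.327) in the knockdown and 47.8 in shDIS3L2, a log2 ratio of -4.97. TRNAU1AP†, which binds the transfer RNA of selenocysteine, had 54.6 FPKM (50.5 to 58.8), 3.60 (2.69 to 4.51) and 56.5, a log2 ratio of -3.60. Both stood in shDIS3L2 at or above their control level, and both had other locus bounds in control and knockdown. NUPR1, a small nuclear protein induced by stress, had 226 FPKM (214 to 238) in control, 16.4 (14.1 to 18.7) in the knockdown and 17.9 in shDIS3L2. SERPINA6, corticosteroid-binding globulin, had 238, 33.2 and 44.0 FPKM. For NUPR1 and SERPINA6 both knockdowns were far below control. CA2†, a carbonic anhydrase, had 99.3, 8.35 and 69.8 FPKM, and DMC1, the recombinase of meiosis, 21.7, 1.76 and 11.6 FPKM. DMC1 rests on few fragments: the width of its bounds corresponds to 19.7 in control and 0.529 in the knockdown. The bounds of DMC1 in the knockdown reached 0. TMEM178A†, a membrane protein, had 28.4 FPKM in control and 2.11 in the knockdown and was listed at 0 in shDIS3L2, and CCDC28B had 34.0, 3.70 and 35.5 FPKM.

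In a further set shDIS3L2 stood nearer to control than to the HNRNPU knockdown. PON2, a lactonase of the paraoxonase family, had 142 FPKM (135 to 148) in control, 20.9 (18.8 to 23) in the knockdown and 244 in shDIS3L2, a log2 ratio of -2.70. S100A10, a light chain partner of annexin A2, had 845 FPKM (814 to 876), 225 (212 to 237) and 634. P4HB, protein disulfide isomerase, had 613 FPKM (587 to 640), 284 (271 to 297) and 611. Chosen after their values were seen, HAX1, a mitochondrial survival protein, had 156 FPKM (148 to 164) in control, 25.3 (22.8 to 27.8) in the knockdown and 151 in shDIS3L2, and PEBP1, the Raf kinase inhibitor protein, had 466, 143 and 646 FPKM. PDCD2 had 92.1, 18.8 and 77.9 FPKM. PON2, S100A10, P4HB, HAX1, PEBP1 and PDCD2 all had the same locus bounds in control and knockdown and overlapped no other expressed locus.

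**Figure D2:**
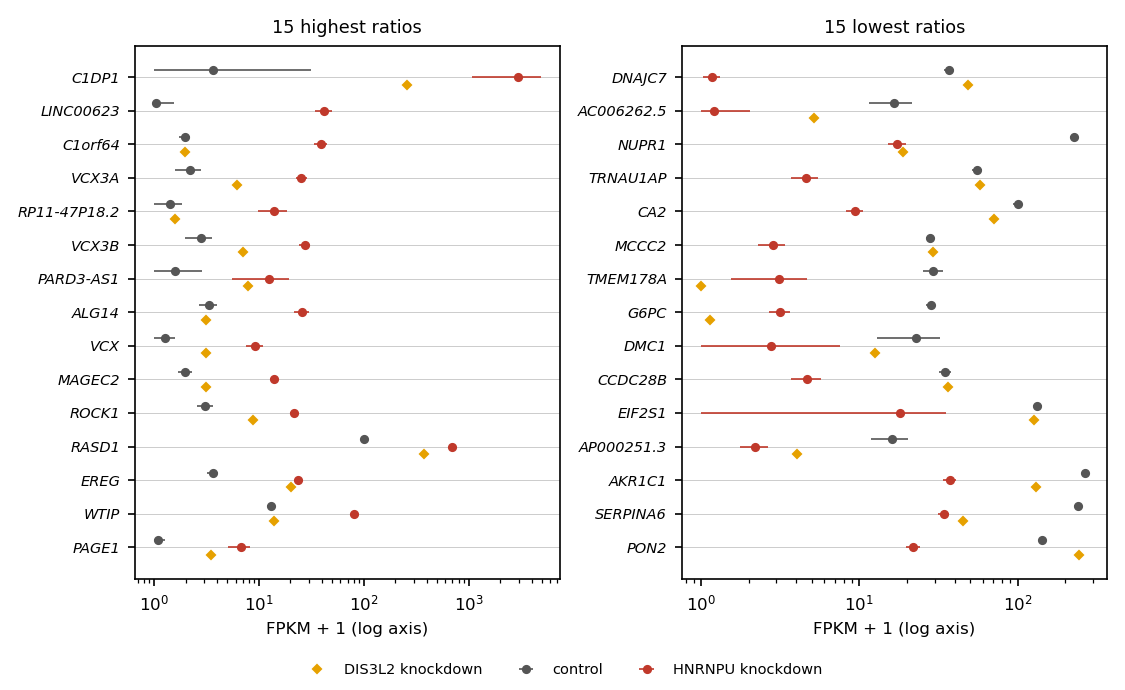
FPKM + 1 on a log axis for the 15 genes with the highest (left) and the 15 with the lowest ratio (right) of the knockdown to control, with deposited bounds for those libraries and diamonds for shDIS3L2. ROCK1 and WTIP, for example, stand highest in the knockdown, at 20.5 and 79.3 FPKM, and PON2 lowest, at 20.9 FPKM.

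The relatives and partners of hnRNP U came next. Of 20 other hnRNP genes tested, 0 were higher and 0 lower, and their median log2 ratio was 0.14 beside 0.13 over all genes. The closest to the threshold was HNRNPH3†, with 75.4 FPKM (71.4 to 79.5) in control, 146 (139 to 152) in the knockdown and 73.3 in shDIS3L2, a log2 ratio of 0.94. HNRNPUL1†, a close relative of the target, had 102, 124 and 75.3 FPKM, and HNRNPC, which coats nascent transcripts, had 589, 587 and 606 FPKM. Among 18 SR proteins and their kinases 1 was higher and 1 lower. SRPK2†, a kinase of SR proteins, had 6.27 FPKM (5.33 to 7.20), 23.9 (21.7 to 26.0) and 8.12, and overlaps another locus. SRSF5, a splicing activator, had 86.7 FPKM (81.4 to 92.0), 41.1 (38.3 to 43.9) and 124. Of 33 core spliceosome genes, SNRPF was higher and SNRPD1†, another Sm protein, lower, with 216, 68.5 and 68.3 FPKM. The core splicing factors U2AF1 (302 to 180 FPKM, log2 ratio -0.75), SF3A2† (66.9 to 129 FPKM, 0.94) and SF3B1 (26.3 to 38.0 FPKM, 0.52) passed neither way.

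Of 23 proteins of the nuclear scaffold, lamina and cohesin, 2 were higher and 1 lower. TOP2A, topoisomerase II alpha, a part of the chromosome scaffold, had 15.9 FPKM (14.8 to 17.0) in control, 55.7 (53.2 to 58.3) in the knockdown and 30.7 in shDIS3L2. The cohesin subunit SMC3 had 1.35, 3.91 and 2.38 FPKM, and LMNB2†, lamin B2, had 386, 192 and 300.4 FPKM under an entry shared with TIMM13. SATB1†, an organiser of chromatin loops, had 5.27 FPKM in control and 1.77 in the knockdown, a log2 ratio of -1.18 whose bounds overlapped. The scaffold attachment factors SAFB† (61.7 to 76.0 FPKM) and SAFB2† (42.0 to 32.1 FPKM) and the matrix protein MATR3† (30.8 to 35.8 FPKM) passed neither way. Of 16 nuclear and other long noncoding RNAs only the snoRNA host SNHG8 was called, with 86.7, 41.4 and 123 FPKM, as lower. MALAT1 had 1.84 FPKM in control and 3.56 in the knockdown, and NEAT1†, the scaffold of paraspeckles, 7.86 and 9.34 FPKM. UCA1, a long noncoding RNA known from bladder cancer, was on no list but was among the most abundant lower genes, with 1168 FPKM (1118 to 1217), 343 (327 to 358) and 421.

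Immediate early genes, which growth factors and stress switch on without new protein synthesis, were higher in 13 of 27. Of 33 listed, 27 were tested, 4 lay below a mean of 1 FPKM, 1 was listed at 0 in a library and 1 had no match. The 13 higher genes are 48.1% of those tested, beside 6.41% of all genes, 0 were lower, and the median log2 ratio was 0.89. After rescaling 12 of the 27 tested were higher and 1 was lower, and 0 of the higher genes changed sign. Some of these promoters are known to carry sites for serum response factor, the CArG box, or for proteins of the CREB and ATF family, TGACGTCA. The stretches below end at the base before the start of the gene and run 5′ to 3′ on its strand, from RefSeq on GRCh38.p14, and capitals mark the site. They are shown because EGR1, MAFF† and DUSP1† were the higher members of their lists with a match.
EGR1 (chr5:138465319-138465478, plus strand): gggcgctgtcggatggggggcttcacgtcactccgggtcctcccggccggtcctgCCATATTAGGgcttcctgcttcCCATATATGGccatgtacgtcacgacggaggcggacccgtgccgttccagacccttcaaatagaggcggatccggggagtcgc
DUSP1 (chr5:172771196-172771355, minus strand): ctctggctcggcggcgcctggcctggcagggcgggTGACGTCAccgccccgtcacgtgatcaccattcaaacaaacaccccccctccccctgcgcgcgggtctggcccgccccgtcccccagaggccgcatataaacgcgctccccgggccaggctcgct
MAFF (chr22:38201834-38201993, plus strand): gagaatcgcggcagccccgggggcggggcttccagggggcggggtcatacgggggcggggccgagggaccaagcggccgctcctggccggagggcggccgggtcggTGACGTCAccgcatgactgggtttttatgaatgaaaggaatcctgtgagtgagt
The sites of EGR1 begin 105 and 83 bases before the start, that of DUSP1† 125 and that of MAFF† 54 bases before it. On either strand of the last 160 bases before the start, 0.8% of 35116 promoters in the table hold a CArG box and 1.44% hold TGACGTCA, and the sites shown overlap no other motif searched. Of the 13 higher immediate early genes 10 had a promoter in the table: 1 held the CArG box (EGR1) and 1 held TGACGTCA (MAFF). Of the 14 that passed neither way 13 had one, and again 1 held each, SRF the CArG box and ZFP36L1 TGACGTCA. These are matches of letters only.

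The highest ratio among them was that of NR4A1†, an orphan nuclear receptor that overlaps another locus here, with 89.9 FPKM (83.9 to 95.9) in control, 526 (506 to 547) in the knockdown and 34.5 in shDIS3L2. EGR1, a zinc finger transcription factor, had 3.67 FPKM (3.22 to 4.12), 17.5 (16.5 to 18.6) and 1.89, a log2 ratio of 1.99. NR4A1 and EGR1 were thus highest in the HNRNPU knockdown and lowest in shDIS3L2. FOSL2, a partner of JUN in the AP-1 factor, had 8.85 FPKM (7.51 to 10.2), 27.6 (24.9 to 30.2) and 8.54, and the small Maf protein MAFK† had 105, 325 and 156 FPKM. Other members were high in both knockdowns: JUN had 12.9, 36.8 and 41.6 FPKM, JUNB† 55.5, 122 and 105 FPKM, and ATF3 2.41, 7.52 and 26.1 FPKM. Not every classical member passed. FOS had 0.868 FPKM in control and 2.04 in the knockdown (log2 ratio 0.70), MYC 30.6 and 21.1 FPKM (-0.52), and KLF4 4.27 and 1.75 FPKM (-0.94), with 20.7 in shDIS3L2. Of the 19 members outside the less certain set 7 were higher and 0 lower. FOSL1 was listed at 0 in control and had 22.9 FPKM in the knockdown.

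Feedback inhibitors and ligands of the MAP kinase pathway, which shut ERK signalling off or pass it on through the EGF receptor, were higher in 8 of 22 (36.4%, beside 6.41% of all genes) and lower in 1 (4.55%). The median log2 ratio was 0.62, and with a pseudocount of 5 it was 0.28 with 5 higher and 1 lower. EREG, the ERBB ligand epiregulin, had 2.64 FPKM (2.24 to 3.05) in control, 22.4 (21.1 to 23.8) in the knockdown and 19.2 in shDIS3L2, a log2 ratio of 2.68. SPRED2†, which blocks the activation of Raf, had 4.16 FPKM (3.48 to 4.85), 22.1 (20.3 to 23.9) and 8.76, and SPRY4† of the Sprouty family had 1.5, 6.84 and 4.92 FPKM. The ERK phosphatases DUSP5 and DUSP6† had 8.08, 53.3 and 61.9 FPKM and 2.99, 11 and 8.52 FPKM. EGFR† itself had 29.5 FPKM (28.0 to 30.9), 64.6 (61.3 to 67.9) and 32.4, while ERRFI1, its feedback inhibitor, had 17, 37.3 and 48.9 FPKM. The lower member was DUSP3, with 43.2 FPKM (41.0 to 45.5), 15.2 (14.1 to 16.4) and 75.7. TGACGTCA was in 1 of the 7 promoters of higher members in the table (DUSP1†) and in 1 of 11 of those that passed neither way (DUSP8†). After rescaling 6 were higher and 1 lower, and over the 9 members outside the less certain set 3 were higher and 1 lower.

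**Figure D3:**
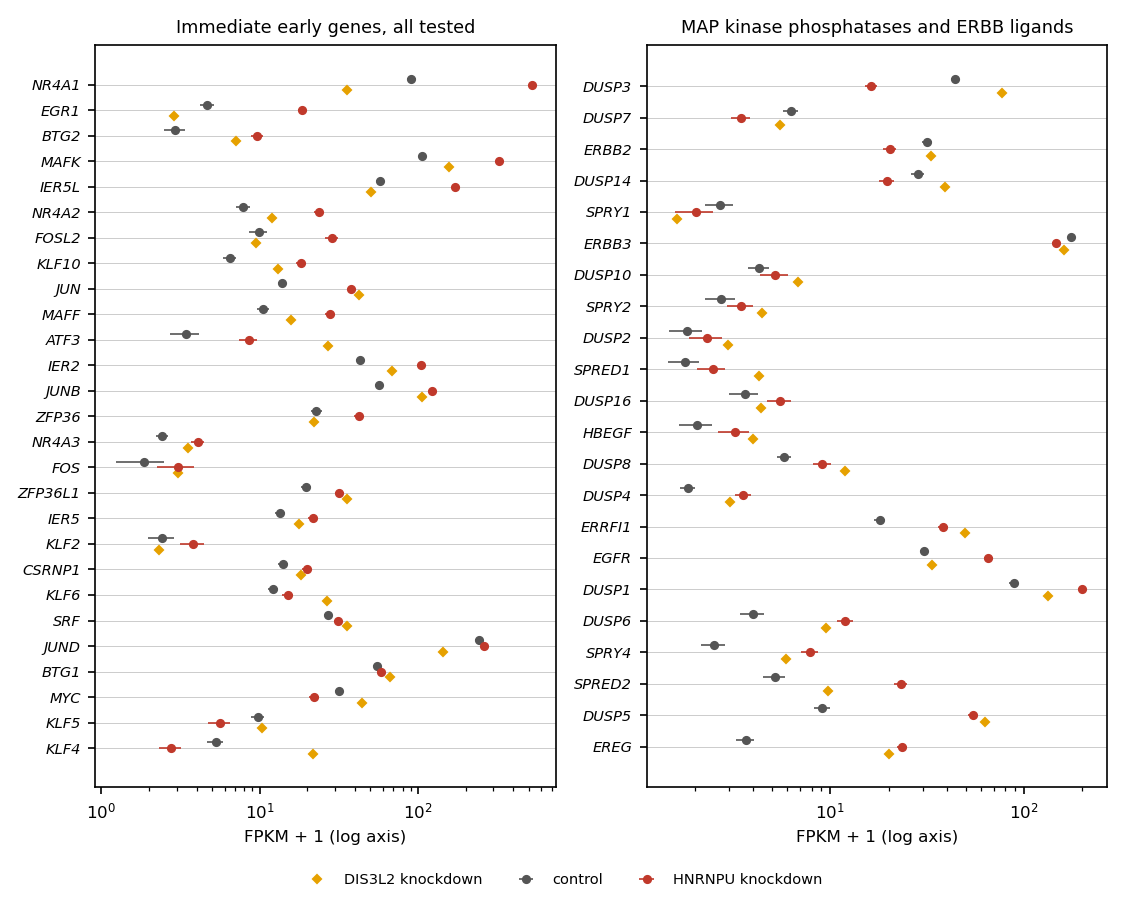
FPKM + 1 on a log axis of the 27 immediate early genes (left) and 22 MAP kinase phosphatases, inhibitors, receptors and ligands (right), ordered by the ratio of the knockdown (red) to control (grey), with deposited bounds and with shDIS3L2 as diamonds. NR4A1 and EGR1 lie highest in the HNRNPU knockdown and lowest in shDIS3L2, while EREG and DUSP5 are high in both knockdowns.

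Targets of the Hippo pathway coactivators YAP and TAZ with TEAD factors were higher in 6 of 27 and lower in 0 (median 0.48). The higher share was 22.2%, beside 6.41% of all genes. The counts were 3 and 1 after rescaling and 3 and 0 with a pseudocount of 5. CYR61, a matricellular protein and classical target, had the largest ratio, 1.88, with 126 FPKM (120 to 131) in control, 465 (445 to 485) in the knockdown and 298 in shDIS3L2. AMOTL2†, an angiomotin that binds YAP, had 19.9, 55.4 and 37.5 FPKM. NUAK2, a kinase, had 9.26 FPKM (8.58 to 9.95) in control, 31.2 (29.3 to 33.0) in the knockdown and 17.9 in shDIS3L2. F3†, tissue factor, had 5.04, 11.8 and 13.3 FPKM, PTPN14† 1.76, 4.81 and 3.19 FPKM and LATS2†, a kinase that inhibits YAP, 5.73, 12.5 and 8.33 FPKM. Of the other classical targets, CTGF (36.4 to 45.3 FPKM, log2 ratio 0.31) and ANKRD1 (1.73 to 2.73 FPKM, 0.45) passed neither way, and YAP1† itself had 12.9 and 16.1 FPKM.

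Genes of the actin cytoskeleton, its regulators and focal adhesion were higher in 6 of 40 (15%, beside 6.41% of all genes) and lower in 0. A ratio above the median of all genes was found in 31 of the 40. Their median was 0.41, and 5 were higher and 1 lower after rescaling. ROCK1 and ROCK2, the kinases that make myosin contract downstream of RhoA, differed in size. ROCK1 had 2.10 FPKM (1.57 to 2.63), 20.5 (18.7 to 22.3) and 7.74, and ROCK2 had 2.85 FPKM (2.28 to 3.42), 7.99 (7.14 to 8.83) and 7.65, a log2 ratio of 1.22. The GTPase RHOB had 60.6 FPKM, 235 and 228. The focal adhesion proteins ZYX† and ACTN4† had 60.5, 140 and 361 FPKM and 110, 245 and 251 FPKM. RAC1 had 368 FPKM (354 to 382), 590 (568 to 613) and 672, a log2 ratio of 0.68 that stayed under the threshold. RHOA† had 316 and 303 FPKM and VCL, vinculin, 36.3 and 23.3 FPKM. Of 12 integrin genes, ITGA1† was higher (10.8, 27.9 and 14.7 FPKM) and ITGA5†, the fibronectin receptor subunit, lower (118, 28.0 and 189 FPKM).

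Metallothioneins are small cysteine-rich proteins that hold zinc and copper. Of 8 metallothionein and zinc transporter genes 4 were higher (50%, beside 6.41% of all genes) and 1 lower (12.5%), with a median of 1.13. With a pseudocount of 5, 2 were higher and 0 lower, and the median was 0.44. Their promoters are known for metal response elements, to which the zinc sensor MTF1 binds, with the core letters TGCACNC or TGCGCNC. The last 160 bases before the start are shown for the abundant pair, as before, with capitals for the core on either strand.
MT2A (chr16:56608424-56608583, plus strand): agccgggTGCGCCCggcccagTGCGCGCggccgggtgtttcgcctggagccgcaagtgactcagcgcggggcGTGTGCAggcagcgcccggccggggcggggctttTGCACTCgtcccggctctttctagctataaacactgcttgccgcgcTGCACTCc
MT1X (chr16:56682310-56682469, plus strand): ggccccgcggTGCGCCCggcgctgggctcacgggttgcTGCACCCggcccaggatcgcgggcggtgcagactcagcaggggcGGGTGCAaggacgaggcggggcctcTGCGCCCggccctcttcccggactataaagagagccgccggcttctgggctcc
The window of MT2A holds 5 such cores and that of MT1X† 4, none of which overlapped another motif searched, and 18.2% of all promoters in the table hold at least 1. Both higher members with a promoter in the table, MT2A and MT1X, and 1 of 2 that passed neither way, SLC30A1, held it. MT2A had 432 FPKM (411 to 453) in control, 1817 (1738 to 1896) in the knockdown and 2342 in shDIS3L2, a log2 ratio of 2.07. MT1X had 103 FPKM (93.3 to 113), 571 (538 to 605) and 274, a log2 ratio of 2.46, MT1F had 2.03, 8.84 and 4.11 FPKM and MT1A 0.507, 3.70 and 1.93 FPKM. In all 4 genes control was the lowest library. These genes are near-identical copies, and reads could be split between them. The exporter SLC30A10† was lower, with 4.36, 1.21 and 0.384 FPKM, while SLC30A1, the textbook target of MTF1 among zinc exporters, had 2.92 and 1.69 FPKM, a log2 ratio of -0.54.

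Genes induced by low oxygen were higher in 3 of 17 (17.6%, beside 6.41% of all genes) and lower in 0. Their median was 0.53, or 0.31 with a pseudocount of 5. ADM, the vasodilator peptide adrenomedullin, had 16.5 FPKM (14.7 to 18.3), 88.2 (83.1 to 93.3) and 59.4, STC2, stanniocalcin, 41.5, 126 and 98.9 FPKM and BNIP3L, a receptor for the removal of mitochondria, 5.91, 15.2 and 5.29 FPKM. HIF1A† had 15.4 and 31.5 FPKM (log2 ratio 0.99) and VEGFA 22.2 and 18.0 FPKM (-0.29), and CA9 was listed at 0 in control and shDIS3L2 and had 62.0 FPKM in the knockdown. In sugar metabolism 4 of 26 genes were higher and 2 lower. The glycolytic genes PFKP (12, 32.3 and 34.2 FPKM), HK1 (8.78, 19.1 and 5.40 FPKM) and the glucose transporter SLC2A3 (104, 222 and 49.1 FPKM) were higher, as was ALDOC† at low levels. G6PC, which releases free glucose in liver, was lower, with 27.2 FPKM (25.5 to 28.9), 2.18 (1.68 to 2.68) and 0.140, as was PGM1†, with 48.8, 18.2 and 21.3 FPKM. After rescaling 1 gene passed as higher and 2 as lower; a pseudocount of 5 left 2 and 2.

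In the integrated stress response, in which phosphorylated eIF2 favours the translation of ATF4, 6 of 20 genes were higher (30%) and 1 lower (5%), and the median was 0.22. Over the 15 members outside the less certain set 5 were higher and 1 lower and the median was -0.05, so its sign turned. After rescaling 4 were higher, and with a pseudocount of 5, 3. CEBPB had 94.3 FPKM (91.3 to 97.4), 225 (220.1 to 230) and 164, SLC7A5, an amino acid transporter, 173, 351 and 326 FPKM and PPP1R15A, the GADD34 phosphatase subunit, 14, 29.1 and 26.2 FPKM. NUPR1 was the lower one. The sensor of unfolded protein ATF6† had 6.08, 15.3 and 16.7 FPKM. Of 22 genes of endoplasmic reticulum chaperones and the unfolded protein response, a separate list, 0 were higher and 1 lower, with a median of 0.07. EIF2S1†, which encodes the phosphorylated subunit eIF2 alpha, was lower, with 132 FPKM (123 to 142), 17.0 (0 to 34.5) and 126, but its bounds in the knockdown reached 0 and it overlaps another locus.

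Regulators of cell death were higher in 6 of 28 (21.4%, beside 6.41% of all genes) and lower in 3 (10.7%, beside 5.11%). The counts were 3 and 3 after rescaling and 2 and 3 with a pseudocount of 5. On the side that promotes death were BBC3, also called PUMA, with 4.67 FPKM (3.81 to 5.53), 15.8 (14 to 17.5) and 11.8, and PMAIP1, also called NOXA, with 2.79, 6.75 and 9.67 FPKM. On the side that prevents it were MCL1, with 27.9 FPKM (26.3 to 29.5), 74.5 (70.8 to 78.1) and 57.8, and BCL2A1, with 0.349, 2.57 and 16 FPKM. Lower were BID (59.5, 21.9 and 60.1 FPKM), CASP9† (20, 6.23 and 16.7 FPKM) and CYCS†, cytochrome c (240, 83.5 and 88.6 FPKM), which are the link from death receptors to mitochondria and parts of the apoptosome. Of 20 p53 genes 3 were higher, BTG2, BBC3 and the death receptor TNFRSF10B†, and 0 lower, with a median of 0.09. CDKN1A, the cell cycle inhibitor p21, had 7.53 FPKM in control, 15.4 in the knockdown and 36.7 in shDIS3L2, a log2 ratio of 0.94, and MDM2† had 4.25 and 4.91 FPKM.

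Mitosis and spindle genes were higher in 5 of 44 (11.4%, beside 6.41% of all genes) and lower in 0, with a median of 0.44. After rescaling 2 were higher, and with a pseudocount of 5, 1 was. Beside TOP2A the higher genes were ANLN† (10.9, 26.8 and 31.5 FPKM), the spindle motor KIF11 (4.6, 11.2 and 6.34 FPKM), CENPF† and ECT2. The proliferation marker MKI67 had 7.96 and 4.80 FPKM (log2 ratio -0.63), CCNB1 149 and 257 FPKM (0.78) and AURKA† 234 and 234 FPKM (0.00). The 42 DNA replication genes had a median of -0.07, and ORC3, a subunit of the origin recognition complex, was higher, with 4.18, 18.8 and 5.57 FPKM. Among 39 chromatin genes 4 were higher and 3 lower. ARID1A, a BAF complex subunit, had 9.47 FPKM (8.76 to 10.2), 21.7 (20.5 to 22.9) and 15.1, while SMARCD1 of the same complex had 44.9 FPKM (42.8 to 47.0), 12.9 (11.5 to 14.2) and 33.8. HDAC1 had 124, 59.4 and 125 FPKM. After rescaling 0 of the 39 were higher and 4 lower; a pseudocount of 5 left 0 and 2.

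Genes of proteins that hepatocytes secrete had a ratio above the median of all genes in 1 of 36 cases, while 10 passed as lower and 26 passed neither way. Of 50 listed, 36 were tested, 9 lay below a mean of 1 FPKM, 3 were listed at 0 in a library and 2 had no match. Of the 36, 10 were lower and 0 higher (27.8%, beside 5.11% of all genes), or 5 and 0 with a pseudocount of 5, and their median log2 ratio was -0.69. In bulk RNA, fewer cells of a type and less RNA per cell cannot be told apart. SERPINF2, alpha-2-antiplasmin, had 504 FPKM (487 to 521) in control, 102 (97.3 to 108) in the knockdown and 56.4 in shDIS3L2, a log2 ratio of -2.29. The 3 chains of fibrinogen were all lower: FGA with 564, 195 and 298 FPKM, FGB with 6.21, 1.93 and 17.9 FPKM and FGG with 19.1, 8.91 and 37.1 FPKM. FGB and FGG were above control in shDIS3L2, and FGA was below it. ALB had 11.8 FPKM (10.1 to 13.5), 5.21 (3.36 to 7.07) and 0.856, APOH 29.7, 11.9 and 5.92 FPKM and ITIH2 50.3, 20.1 and 33.2 FPKM. Abundant members differed less: SERPINA1, alpha-1-antitrypsin, had 11439, 6710 and 2865 FPKM (log2 ratio -0.77), AMBP 4158, 2310 and 2671 FPKM (-0.85) and APOA1 311, 184 and 18.9 FPKM (-0.76), none past the rule. Of the 23 members outside the less certain set 9 were lower and 0 higher. A2M, alpha-2-macroglobulin, which was on no list, had 990 FPKM (960 to 1020), 454 (439 to 468) and 428.

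Liver transcription factors were higher in 1 of 19 and lower in 4 (21.1%, beside 5.11% of all genes). With a pseudocount of 5, 2 of the 4 were lower. CEBPA†, a driver of hepatocyte differentiation, had 71.7 FPKM (68.0 to 75.4), 19.9 (18.5 to 21.4) and 25.9, a log2 ratio of -1.80, and CEBPB was the higher one. FOXA1, a pioneer factor, had 20.1 FPKM (18.6 to 21.5), 7.36 (6.25 to 8.47) and 8.76, and NR0B2†, the repressor SHP of bile acid synthesis, 11.9, 4.03 and 27.1 FPKM. HNF4G† had 4.48, 1.28 and 1.56 FPKM. Of the bile duct markers EPCAM had 69.0, 77.7 and 88.1 FPKM, KRT7† 7.04, 6.08 and 32.2 FPKM and SOX9† 4.08, 3.09 and 10.0 FPKM, and 0 of 3 passed the rule. Among blood markers the alpha-globin genes HBA1 and HBA2 were higher (8.94, 44.9 and 12 FPKM and 8.25, 36.2 and 9.99 FPKM), while HBB and CD3E were listed at 0 in all libraries, CD14 stayed under 1 FPKM and PTPRC had 0, 0.442 and 0 FPKM. LYZ† was lower, with 181, 70.8 and 33.5 FPKM, and CD68† had 1507 and 1681 FPKM. The part of other cells in any result was not tested.

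Annexins and S100 proteins, calcium-dependent membrane and signalling partners, were lower in 6 of 17 (35.3%, beside 5.11% of all genes) and higher in 1. The median was -0.68, and with a pseudocount of 5, 3 were lower and 0 higher. S100P had 204 FPKM (183 to 225), 39.3 (35.8 to 42.8) and 160, a log2 ratio of -2.35, and ANXA4† had 160, 49.5 and 42.8 FPKM. S100A9 was the higher one, with 25.4, 53.4 and 9.95 FPKM. ANXA2, the partner of S100A10, had 871 FPKM in control, 544 in the knockdown and 1516 in shDIS3L2, a log2 ratio of -0.68 that did not pass. After rescaling 7 of the list were lower and 0 higher.

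**Figure D4:**
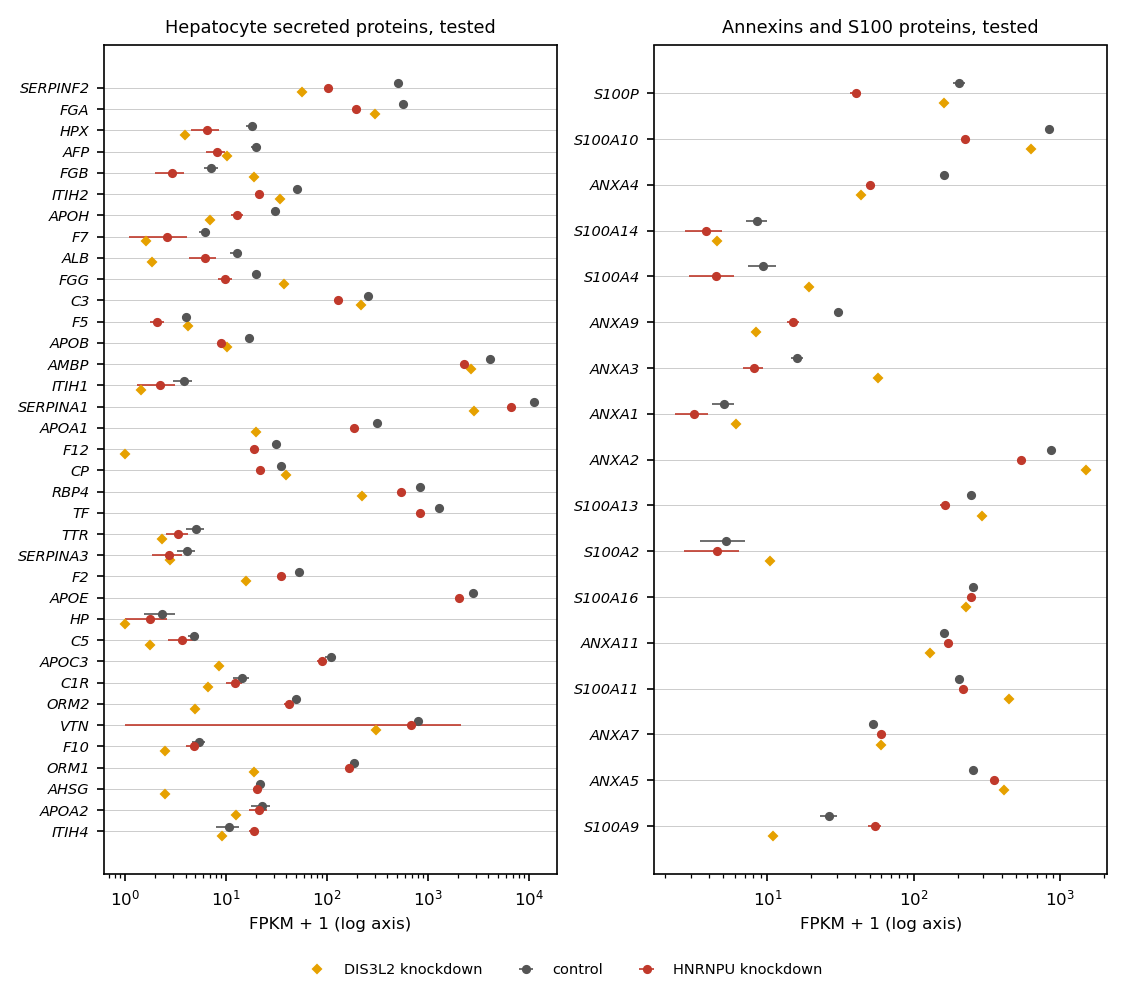
FPKM + 1 on a log axis of 36 genes of hepatocyte secreted proteins (left) and 17 annexin and S100 genes (right), ordered by the ratio of the knockdown (red) to control (grey), with deposited bounds and shDIS3L2 as diamonds where it has a value. Red points lie left of grey ones for the secreted proteins, for example SERPINF2 at 504 and 102 FPKM, with ITIH4 as an exception, at 9.83 FPKM in control and 18.0 in the knockdown.

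Other liver functions were lower in single genes. Of 13 genes of amino acid breakdown 3 were lower and 0 higher: CBS, cystathionine beta-synthase (144, 63.6 and 99.99 FPKM), and the tyrosine-degrading enzymes HGD (60.1, 23.2 and 60.2 FPKM) and HPD (5.28, 2.06 and 2.45 FPKM). Of 31 NRF2 and redox genes 4 were lower and 0 higher. The aldo-keto reductases AKR1C1 (265, 36.4 and 130 FPKM), AKR1C2† (38.0, 6.66 and 23.7 FPKM) and AKR1C3† (91.8, 20.5 and 41.6 FPKM) are near-identical genes that can share reads. GPX2† had 11.8, 2.17 and 2.2 FPKM. Of 28 cholesterol genes 4 were lower (14.3%, or 2 genes with a pseudocount of 5) and 0 higher, among them MVD† of the mevalonate pathway, with 75, 21.9 and 62.5 FPKM. FDPS had 209, 97.1 and 127 FPKM. Fatty acid metabolism had 0 of 25 called. ACO1, the iron regulatory protein 1, had 17.8 FPKM (16.7 to 19), 3.73 (3.25 to 4.20) and 12.4.

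After these values had been seen, the breakdown of branched-chain amino acids and ketone bodies, a mitochondrial pathway that ends in acetyl-CoA, was counted as a list. It had 4 of 23 genes lower (17.4%) and 1 higher, and over the 16 outside the less certain set 3 lower and 0 higher. ACAT1, the mitochondrial acetoacetyl-CoA thiolase, had 90.6 FPKM (85.5 to 95.6) in control, 14.5 (12.7 to 16.4) in the knockdown and 85.3 in shDIS3L2, a log2 ratio of -2.56. MCCC2†, a subunit of the leucine-degrading methylcrotonoyl-CoA carboxylase, had 26.8 FPKM (25.3 to 28.4), 1.85 (1.29 to 2.40) and 28.2, and MCCC1, the other subunit, had 9.38 and 2.76 FPKM, a log2 ratio of -1.46 that failed on its bounds. AUH†, which acts next in the pathway, was higher, with 3.98, 14.3 and 5.02 FPKM. The citric acid cycle had 1 of 16 lower, SUCLG2, with 30.6, 6.05 and 19.2 FPKM, and CS†, citrate synthase, had 216 and 219 FPKM. Other mitochondrial genes named after their values were seen were VDAC2, a channel of the outer membrane (132, 41.9 and 206 FPKM), and NADK2, the mitochondrial NAD kinase (20.8, 4.35 and 6.58 FPKM).

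Of 78 cytosolic ribosomal protein genes 3 were lower and 0 higher, and 9 had a ratio above the median of all genes, with a list median of -0.26. RPS27A had 1545 FPKM (1494 to 1596), 728 (701 to 755) and 2017, RPS4X† 1843, 859 and 1064 FPKM, and RPL17†, under an entry shared with C18orf32 and snoRNAs, 1102, 282 and 1671 FPKM. Mitochondrial ribosomal proteins had 1 of 68 lower, MRPS14†, with 104, 17.9 and 37.9 FPKM. In 34 initiation factors EIF5B† (12.3, 31.5 and 16.8 FPKM) and EIF4A2† were higher and EIF2S1† lower. Of 18 transfer RNA synthetases 3 were lower (16.7%, or 1 with a pseudocount of 5), YARS† (86.6, 34.1 and 82.5 FPKM), IARS (42.8, 19.4 and 79.0 FPKM) and FARSB (31.4, 14.6 and 32.6 FPKM). Of 75 nuclear-encoded genes of oxidative phosphorylation COX7C† was higher (356, 1245 and 1485 FPKM) and COX7B† (167, 35.6 and 54.9 FPKM) and CYCS† were lower. The proteasome, with 39 genes, had 1 higher and 2 lower, and PSME2† of its activator had 179, 55.9 and 219 FPKM.

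Cancer-testis genes, which are silent in most adult tissues outside the germline, were higher in 7 of 19 (36.8%, beside 6.41% of all genes). The list had 0 lower and a median of 0.72, or 0.45 with a pseudocount of 5, and 6 were higher after rescaling. MAGEC2 had 0.997 FPKM (0.694 to 1.30) in control, 13 (11.8 to 14.1) in the knockdown and 2.14 in shDIS3L2, and PAGE1 had 0.0933 FPKM (0 to 0.280), 5.70 (4.10 to 7.31) and 2.47. The 4 VCX genes VCX3A, VCX3B, VCX and VCX2, near-identical copies on chromosome X, stood between 5.62 and 26.3 FPKM in the knockdown and between 0.197 and 1.79 FPKM in control. They make up 4 of the 7 higher genes and can share reads, so they may not count as separate genes. Members that were already abundant differed little: MAGEA4 had 672 and 860 FPKM and MAGEA3 169 and 187 FPKM. Chromosome X as a whole had 9.09% of 407 genes higher and 3.19% lower, and 7.73% and 3.35% of 388 genes once the cancer-testis genes were left out.

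Many gene-name prefixes were counted, and a few families among them, looked at after the values had been seen, are given here. Of the prefixes counted, ARL had the largest share higher (6 of 22, 27.3%, with DUSP next at 26.7%) and ZDHHC the largest share lower (4 of 15, 26.7%). The ARF-like and ZDHHC lists below hold other sets of genes than these prefixes. Of 213 protein-coding genes named ZNF and a number, most of them zinc finger repressors, 21 were higher and 1 lower (9.86% and 0.469%). At a mean of 1 to 5 FPKM 8 of 138 were higher (5.8%), beside 6.96% of 2257 other protein-coding genes, and at 5 FPKM or more 13 of 75 (17.3%), beside 5.97% of 6787 others. Outside the less certain set 2 of 32 were higher at 5 FPKM or more, a share near that of the other genes, and 5 of 78 over all levels. ZNF226 had 3.45, 21.5 and 6.62 FPKM and ZNF677 0.246, 4.30 and 2.27 FPKM. Of 13 ARF-like GTPases, regulators of vesicles and cilia, 0 were lower and 6 higher (46.2%, beside 6.41% of all genes), among them ARL3 (9.64, 33.5 and 11.2 FPKM). But 2 were higher after rescaling and 1 with a pseudocount of 5, where the median was 0.54 in place of 0.91. Of 17 ZDHHC palmitoyltransferases, which attach fatty acids to proteins, 4 were lower (23.5%, beside 5.11% of all genes) and 0 higher. The lower ones were ZDHHC3† (31.0, 7.51 and 30.6 FPKM), ZDHHC5† (24.8, 7.04 and 26.6 FPKM), ZDHHC9 (27.5, 7.88 and 20.9 FPKM) and ZDHHC14 (17.9, 6.65 and 19.9 FPKM). All 4 were well above their knockdown level in shDIS3L2. Mediator, the bridge from enhancer factors to RNA polymerase II, had 1 of 29 higher and 2 lower at a median of 0.54, with MED9 at 18.9, 55.8 and 32.8 FPKM.

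SNAI1, a repressor of E-cadherin, had 4.28 FPKM (3.59 to 4.96), 19.1 (17.5 to 20.7) and 10.4, and was the 1 called gene of 28 epithelial, mesenchymal and matrix genes. In the TGF-beta and BMP pathway 2 of 31 were higher (6.45%) and 3 lower (9.68%, or 1 gene with a pseudocount of 5): SMAD4†, the common partner of the receptor-activated Smads, had 4.6, 21.2 and 7.97 FPKM under an entry shared with ELAC1, BMP2 had 2.61, 0.323 and 1.57 FPKM and FST†, the activin antagonist follistatin, 41.9, 11.6 and 73.8 FPKM. CTNNB1†, beta-catenin, had 62.2, 131 and 110 FPKM, and IL11† of the cytokines 2.53, 11.4 and 11.3 FPKM. Of 17 interferon-stimulated genes OAS3† was lower, with 6.07, 1.82 and 5.00 FPKM. HSP90AA1, the inducible HSP90, had 160, 340 and 202 FPKM, and 18 reference genes had 0 called and a median of 0.06.

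**Figure D5:**
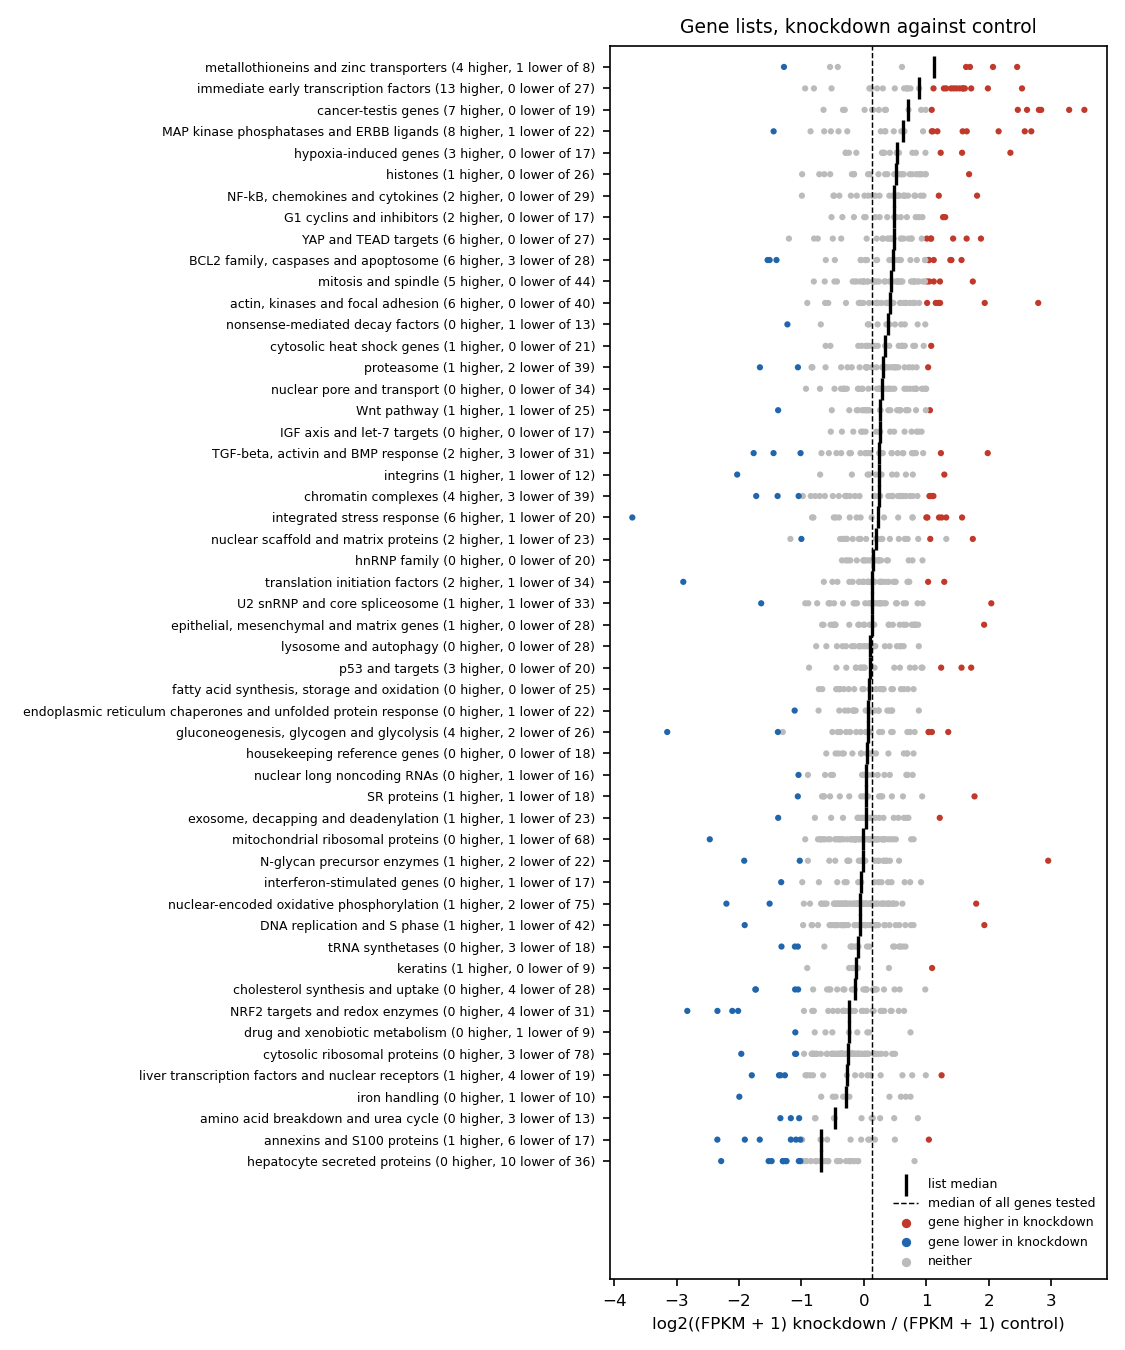
Log2 ratios of FPKM + 1, knockdown to control, for each list with at least 8 tested members, without the lists added after values were seen, ordered by list median (tick), with higher genes red, lower genes blue and others grey. The dashed line is the median of all genes, 0.13, with metallothioneins (1.13) and immediate early genes (0.89) among the lists above it, and annexins and S100 proteins (-0.68) and hepatocyte secreted proteins (-0.69) among those below it.

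Of 7 short structured RNAs, counted after their values were seen, 3 were higher and 1 lower. RNA5-8S5†, the 5.8S ribosomal RNA on an unplaced contig, was listed at 1033130 FPKM in control, 2575860 in the knockdown and 2065320 in shDIS3L2, and MIR3648, which lies in the spacer of the ribosomal RNA precursor, at 34.0 FPKM (0 to 102), 1592 (897 to 2286) and 202. RMRP, the RNA of an enzyme that cuts that precursor, had 26.0 FPKM (14.6 to 37.4), 166 (128 to 205) and 15.5. RN7SL1†, which scaffolds the signal recognition particle, had 2519, 615 and 986 FPKM, and RN7SK 27.9 and 31.3 FPKM. How much ribosomal RNA a library kept was not tested.

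Genes listed at exactly 0 in 1 library were set apart, since such a value can be a failed estimate. With at least 1 FPKM in the other library there were 290 in control and 317 in the knockdown. EMC6†, a subunit of the membrane insertase of the endoplasmic reticulum, had 366 FPKM in control and 275 in shDIS3L2 and was listed at 0 in the knockdown. MRPL27, a mitochondrial ribosomal protein, had 151 and 205 FPKM and was likewise listed at 0 there, and YIF1B was listed at 0 in both knockdowns beside 173 FPKM in control. MGAT4B†, a glycan-branching enzyme, was listed at 0 in control and had 191 FPKM in the knockdown and 140 in shDIS3L2. Of the secreted proteins C1S (138 FPKM in control, 160 in shDIS3L2) and APOM (94.9 FPKM in control) were listed at 0 in the knockdown, APOM in shDIS3L2 as well.

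The kind of identifier a locus carried went with how often it was called. Among 277 genes with a reference identifier in control and a newly assembled one in the knockdown 17.3% were higher and 2.89% lower, and among 177 with the reverse 3.95% were higher and 10.2% lower. Protein-coding loci under 5000 bases were higher in 9.75% and lower in 4.6%, beside 6.3% and 4.98% of all protein-coding genes. In the set with the same bounds, a single name and no overlap, 281 of 4736 genes were higher and 242 lower.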

How the data were processed

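RNA-seq was measured in 3 libraries, 1 per group. The authors deposited FPKM per gene with lower and upper confidence bounds and a status, per the file headers; per the submitters' processing notes, TopHat2 2.0.12, Cufflinks 2.2.1 and hg19 were used. The sources used here do not state the annotation, the handling of strand or the level of the bounds. Read counts were not used here, so no count test was run. Entries were matched by whole gene name and overlapping locus, and genes above 0 in both libraries, with status OK and a mean of at least 1 FPKM, were tested. Ratios are log2((knockdown FPKM + 1)/(control FPKM + 1)), a scale that shrinks differences of low genes. A gene was called at a log2 ratio of at least 1 or at most -1 with bounds that do not overlap. No p-value was computed, since each arm is 1 library. Depth was estimated from the width of the bounds, taken as counting error of 2 standard errors.

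The 62 gene lists, the members and the rule were chosen with earlier results of these data known, and 6 of the lists after values had been seen here. Named genes were HNRNPU, DIS3L2 and RAC1, the 15 highest and 15 lowest ratios (at least 5 FPKM in the higher library, locus of at least 300 bases), the called genes with the largest ratios of each list, well-known members that did not pass, the 10 most abundant called genes per direction and the highest genes listed at 0; genes of unsure function could be left out, and exceptions are named where they occur. Some genes are not reported here. Promoters were read from RefSeq (GRCh38.p14). The rule was tested on simulated data. Python 3.11.15 with pandas 2.3.3 and numpy 2.4.6 was used. The 2 libraries compared and the alternatives (pseudocount, rescaling, filters, thresholds, matching) are given in the closing section.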

Additional observations from a re-analysis of the deposited data

Results flagged for a closer look

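The mitochondrial chromosome entered no comparison, because the control table holds 0 entries for it, against 10 in the knockdown and 11 in shDIS3L2. The highest of these entries was listed at 38281 FPKM in the knockdown and at 33451 in shDIS3L2. It is named here because it is a strong signal in data outside the comparison with no counterpart in control. Whether it bears on the scaling of the libraries was not tested.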

How the results depend on the processing

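With 1 library per group no call has a replicate check. No paired analysis was possible because each group has 1 library and no test was run. The count of 684 higher genes was 238 with a pseudocount of 5, 281 with the same bounds, 1 name and no overlapping locus, 2044 at a log2 threshold of 0.58 and 51 at a threshold of 2. The count of 545 lower genes was 292, 242, 1279 and 63 under those same settings. The subset with the same bounds has fewer genes, 4736 of 10673. The counts were within 1.5 times of those reported with a pseudocount of 0.1, median rescaling, a mean of at least 5 FPKM, no filter, genes at 0 kept, and matching by name alone. The share of calls that were higher was 55.7%, 44.9% with a pseudocount of 5 and 39.6% after rescaling. The log2 ratio of HNRNPU was -2.38, -2.25 with a pseudocount of 5 and -2.52 after rescaling. Relative to the median of all genes, 4 of 58 list medians changed side under rescaling.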
